A study of Mus musculus with 9 samples.

Results

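The histone genes are described here in 2 classes, as measured in sorted mouse prostate cells. The replication-dependent class comprised 44 probes of 34 genes whose array names begin with Hist1h, Hist2h, Hist3h or Hist4h. The contrast class comprised 15 probes of 7 variant genes, H2afz, H2afx, H2afy, H2afv, H3f3a, H3f3b and H1f0. Together these 41 genes, of 27670 gene names on the array, held 59 of its 41174 probes, and they were chosen by name. The family was taken up because a large difference of H1f4 (Hist1h1e) in the same comparison was already known. Counts and adjusted p-values below therefore describe a fit over the whole array and are not independent evidence about the family.

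Cells came from prostates of BL6 mice and were separated by FACS, which sorts single cells by their fluorescent surface stain. Marker-positive cells (3 arrays), called stem cells in the labels, were Lin- CD44+ CD133+ Sca-1+ CD117+. Marker-negative cells (6 arrays) were Lin- CD44- CD133- Sca-1- CD117-. No genotype, treatment or age is named for either group, and both lacked the lineage stain. Whether 2 arrays of a group had different mice as their source is not in the labels, so the p-values rest on array-to-array spread that may be technical. Every array carried sample RNA in Cy5 and the same pooled mouse reference RNA in Cy3, and a level below is the log2 ratio of sample over that pool. A difference is marker-positive minus marker-negative.

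Histones are the proteins around which DNA is wound. H3 and H4 form the central tetramer of the nucleosome, H2A and H2B flank it as dimers, and H1 binds the linker between nucleosomes. Replication-dependent histone genes lie in clusters, are expressed mainly during S phase, and give mRNAs that end in a stem-loop in place of a poly(A) tail, although some also give polyadenylated transcripts in differentiated cells. Variant genes mostly lie alone. Most are expressed throughout the cell cycle and give mainly polyadenylated mRNAs, though not every variant gene does so for all of its transcripts. The amplification used for these arrays primes on poly(A), so an array level of a replication-dependent gene reflects the transcripts that can be primed and need not follow its total mRNA.

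Promoters of genes on which the results turn are shown to place the family. They are RefSeq windows of build GRCm38.p6, given 5′ to 3′ on the gene's strand and ending at the base before the transcription start. Capitals mark, in the H4 genes, the letters GGTCCG of the H4 subtype element that Hinfp binds and the TATA box TATAAA. In H1f4 they mark the H1 box AAACACA and the TATA box, and in H2bc14 the octamer ATTTGCAT that Pou2f1 binds. Where a motif named here for a gene has no capitals in its line, it was not found in the stretch shown. Other motifs, such as CCAAT, were not marked.
H4c4 (Hist1h4d), chr13:23581488-23581567, + strand: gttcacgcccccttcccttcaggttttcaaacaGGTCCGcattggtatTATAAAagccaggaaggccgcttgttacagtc
H4c6 (Hist1h4f), chr13:23551669-23551748, - strand: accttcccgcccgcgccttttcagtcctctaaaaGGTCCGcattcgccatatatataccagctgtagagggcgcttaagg
H4f16 (Hist4h4), chr6:136804432-136804511, - strand: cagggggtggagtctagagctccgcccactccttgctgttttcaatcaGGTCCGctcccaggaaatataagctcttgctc
H4c9 (Hist1h4i), chr13:22041363-22041442, - strand: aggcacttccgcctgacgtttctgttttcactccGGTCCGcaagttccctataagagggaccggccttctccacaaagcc
H1f4 (Hist1h1e), chr13:23622559-23622688, - strand: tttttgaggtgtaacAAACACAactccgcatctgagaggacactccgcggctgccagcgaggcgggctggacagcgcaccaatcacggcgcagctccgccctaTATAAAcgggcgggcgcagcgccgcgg
H2bc14 (Hist1h2bm), chr13:21721964-21722043, + strand: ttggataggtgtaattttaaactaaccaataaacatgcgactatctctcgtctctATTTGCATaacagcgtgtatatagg

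Of the 31 replication-dependent genes with a tested probe, 26 had a promoter in the RefSeq table, as did 6 of the 7 variant genes. The 250 bases before each start were searched on both strands. GGTCCG was in 4 of 5 H4 promoters, against 6.72% of all 32851 RefSeq promoters in the table. In the 4 H4 promoters shown it began 47, 46, 32 and 46 bases before the start. AAACACA was in 4 of 5 H1 promoters, against 6.25% of all. ATTTGCAT was in 6 of 10 H2A and 3 of 4 H2B promoters, against 1.6% of all. TATAAA was in 16 of 26 replication-dependent promoters and in 1 of 6 variant promoters, against 12.4% of all, and CCAAT was in 22 of 26 and 4 of 6, against 33.8%. Hist1h4i, whose probe differed least among the H4 genes, held GGTCCG, as did Hist1h4d, Hist1h4f and Hist4h4. Hist1h4a, whose probe differed by -4.06, held none in this window. The Hist1h4a probe has several listed RefSeq transcripts and the Hist1h4i probe has none, so their levels may not belong to single promoters. Whether the motif bears on the levels was not tested.

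On the 9 arrays the share of probes with Cy5 signal well above background was 45.5% to 69.5%, and the 28332 probes with such signal on 3 or more arrays were tested. These included 37 replication-dependent probes of 31 genes and 14 variant probes of all 7 genes. The other 7 replication-dependent probes and 1 variant probe did not pass that filter. Marker-positive replicate 3 stood apart, with the lowest detection (45.5%) and log2 ratios that correlated at 0.61 and 0.58 with the other marker-positive arrays, which correlated at 0.92 with each other. With the marker-negative arrays marker-positive replicate 3 correlated at 0.48 to 0.68. For marker-negative replicates 4 and 6 this was higher than with either array of its own group. The main counts are therefore given with and without marker-positive replicate 3. Detection was next lowest on marker-negative replicate 3 (47.5%).

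Many replication-dependent histone transcripts were lower in marker-positive cells, while of the variant probes 1 was higher and 0 lower. Of the 37 tested replication-dependent probes 20 were lower and 0 higher by limma (adjusted p under 0.05), where 1.99% of all tested probes were lower. The count of higher probes was also 0 at an unadjusted p under 0.05. By gene, with 1 probe each, 18 of 31 were lower. Of the 20 lower probes 9 have several listed RefSeq transcripts, so fewer separate transcripts may lie behind these counts. Without marker-positive replicate 3, where 773 probes of the whole array were lower and 1204 higher, the count of lower probes was 24 of 37. It was 8 without marker-positive replicate 1, without marker-positive replicate 2 or without marker-negative replicate 5, 9 without marker-negative replicate 2 or 6, and 13 without marker-negative replicate 1, and in those 6 fits 159 to 435 probes of the whole array were lower.

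The median difference of the replication-dependent probes was -1.86, in a range from -4.53 to 0.74, beside -0.03 for all tested probes. Without marker-positive replicate 3 the median was -2.55, and within slides 1 and 2, the slides that carried both groups, it was -1.90 and -2.37. A difference of -2 or lower was found for 18 of the 37 probes (48.6%) and for 2.02% of all tested probes. The groups did not overlap, with marker-positive lower, at 21 of the 37 probes, where 6.78% of all tested probes did so. In 36 of 37 probes the difference was negative, as in 52.6% of all. Where slide was a fixed block 8 replication-dependent probes were lower, of 47 lower in the whole array. The difference in that fit rests on slides 1 and 2. Of these arrays slide 5 held only marker-positive replicate 3, and slides 3 and 4 held only marker-negative arrays. Marker-positive replicate 3 therefore cannot be told apart from its slide. In a bulk sample, fewer cells that carry a transcript and less transcript per cell cannot be told apart.

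On each array the median replication-dependent probe was compared with the median variant probe. It lay at -0.68, -0.85 and 0.43 on marker-positive arrays, against a lowest of 1.02, a median of 1.39 and a highest of 2.35 on marker-negative arrays. These ranges did not overlap. For the variants the median probe lay at -0.33, -0.36 and 0.14 on marker-positive arrays, against -0.99, -0.39 and -0.01 (lowest, median and highest) on marker-negative arrays, and the ranges overlapped. The replication-dependent median minus the variant median was -0.35, -0.49 and 0.29 on marker-positive arrays, against 1.09 to 2.78 on marker-negative arrays. Relative to the pooled reference, 13 of 37 replication-dependent probes were above 0 on average in marker-positive cells and 35 of 37 in marker-negative cells.

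**Figure D1:**
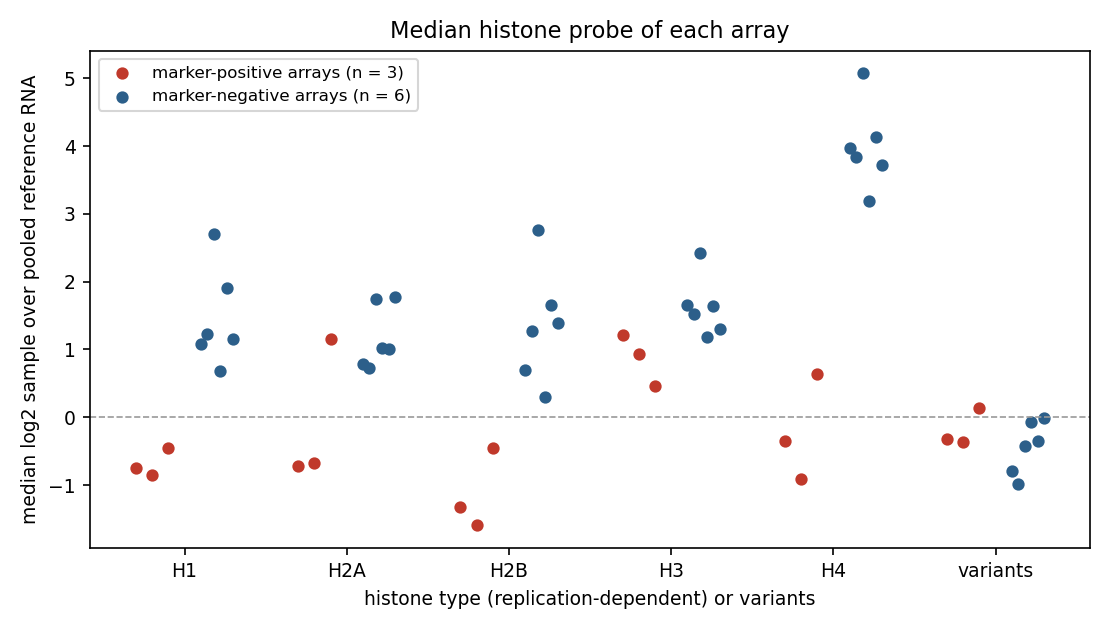
Median log2 ratio of sample over pooled reference RNA (vertical axis) on each array for the tested probes of each histone type and for the variants (horizontal axis), with marker-positive arrays (n = 3) left of marker-negative arrays (n = 6). The H4 medians lie at -0.91 to 0.64 on marker-positive arrays and at 3.19 to 5.07 on marker-negative arrays, while those of the variants overlap.

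Histone H4, the partner of H3 in the tetramer, differed most by the median of its type. Of 7 tested H4 probes 6 were lower, and their median difference was -4.01. The median H4 probe lay at -0.35, -0.91 and 0.64 on marker-positive arrays, against 3.19, 3.90 and 5.07 (lowest, median and highest) on marker-negative arrays. Marker-positive cells were thus near the level of the pooled reference and marker-negative cells far above it.

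Hist1h4f (H4c6, probe A_52_P52964, chr13:22917373-22917432 of build mm7) stood at -0.35, -0.93 and 0.31 on marker-positive arrays, against 3.19, 4.02 and 5.07 on marker-negative arrays. The difference of -4.34 (SE 0.41, limma adjusted p = 0.0011) is 20.3-fold lower. Even the highest marker-positive array lay far below the lowest marker-negative one. Hist1h4a (H4c1) averaged -0.03 ± 1.05 (SD, n = 3) in marker-positive and 4.03 ± 0.46 (SD, n = 6) in marker-negative cells. Hist1h4d (H4c4) had probes that differed by -4.29 and -3.85. Hist2h4 (H4c14), on chromosome 3, averaged -0.15 ± 0.72 (SD, n = 3) in marker-positive and 3.86 ± 0.71 (SD, n = 6) in marker-negative cells, a difference of -4.01. Hist4h4 (H4f16), on chromosome 6 and outside the large clusters, averaged 0.43 ± 0.90 (SD, n = 3) and 4.29 ± 0.57 (SD, n = 6) in the same order, a difference of -3.86. In all 6 of these probes the groups did not overlap.

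H4 genes have similar coding sequences, so a probe can read several copies. The array's own annotation lists more than 1 RefSeq transcript for the Hist1h4a and Hist1h4f probes and for one Hist1h4d probe, with differences of -4.34 to -4.06. It lists a single RefSeq transcript for the other Hist1h4d probe, Hist2h4 and Hist4h4, with differences of -4.01 to -3.85. At most 4 accessions are listed for a probe, so sharing among copies may be wider than listed, and gene-level H4 values are uncertain. Levels of the Hist1h4f and Hist2h4 probes and the Hist1h4d probe with several listed transcripts ran closely side by side. These probes may read the same RNA. Hist1h4i (H4c9), listed without a RefSeq transcript, did not pass. It stood at -1.18, -1.34 and 0.96 on marker-positive arrays, against -0.31, 0.22 and 1.02 on marker-negative arrays, and the groups overlapped because marker-positive replicate 3 was high. All 6 called H4 probes remained called under each of the 21 alternatives run on single probes, with differences of -4.66 to -3.41.

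**Figure D2:**
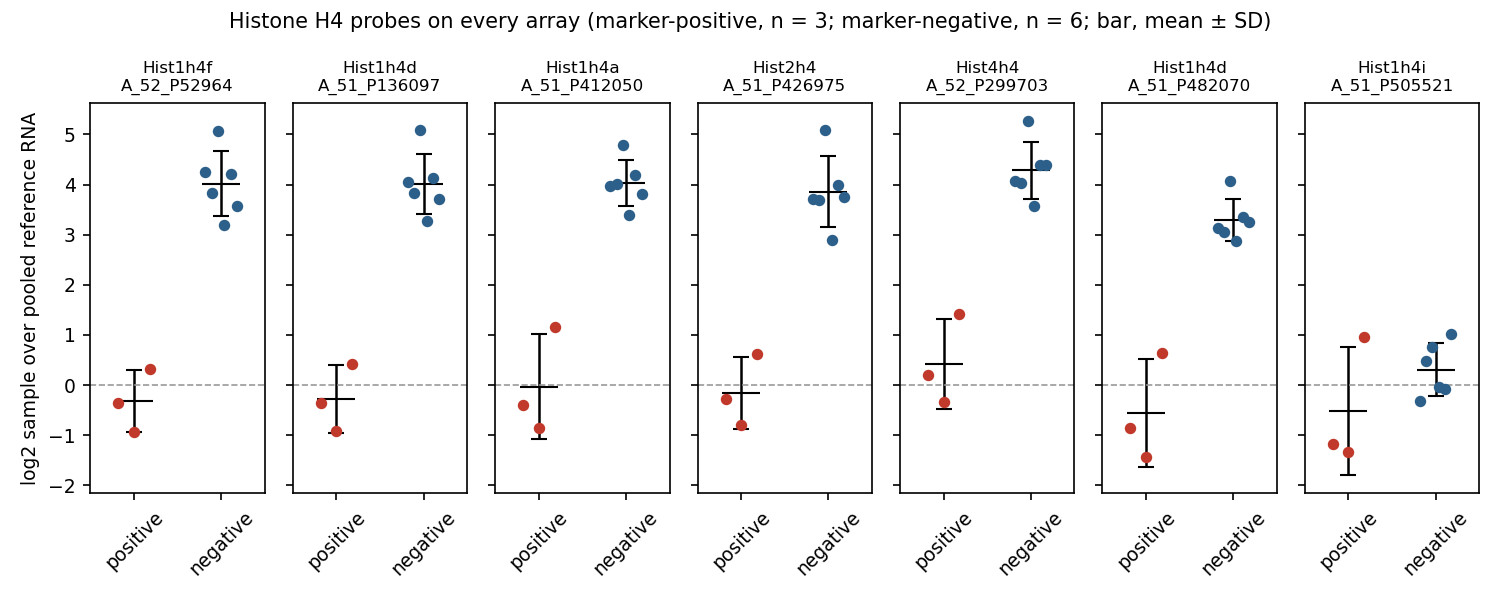
Log2 ratio of sample over pooled reference RNA (vertical axis) of each tested H4 probe, with marker-positive arrays (red, n = 3) left of marker-negative arrays (blue, n = 6) and bars for mean ± SD. In 6 of the 7 panels the marker-positive arrays lie between -1.44 and 1.42 and the marker-negative arrays between 2.88 and 5.27, and in the panel of Hist1h4i they overlap.

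Among H3 genes, Hist1h3a was lower and 2 others did not pass. Hist1h3a (H3c1) stood at -0.24, -0.80 and 0.89 on marker-positive arrays, against 2.48, 3.36 and 4.55 on marker-negative arrays. The difference was -3.47 (SE 0.51, limma adjusted p = 0.0078), or 11.1-fold, and the groups did not overlap. Hist1h3d (H3c4) averaged 0.88 ± 0.40 (SD, n = 3) in marker-positive and 1.60 ± 0.46 (SD, n = 6) in marker-negative cells, a difference of -0.71. Hist2h3c1 (H3c14) differed by -0.58. The groups overlapped for both, and the array lists several transcripts for each of these 2 probes. The median H3 probe was 0.46 to 1.22 on marker-positive and 1.18 to 2.43 on marker-negative arrays.

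Linker histones of the H1 family were lower for 4 of 6 tested probes, with a median difference of -2.68. The count was 1 without replicate 1 or 2 of marker-positive cells or replicate 5 of marker-negative cells, 2 without marker-negative replicate 1, 2, 3 or 6, and 0 with slide as a fixed block, and the median was -2.98 to -2.33 in these fits and those without the remaining arrays. Hist1h1e (H1f4, probe A_51_P464822, chr13:22987640-22987699 of build mm7) gave the largest difference of all histone probes and is the gene that led to the choice of the family. It stood at -2.50, -3.22 and -3.28 on marker-positive arrays, against 0.24, 1.37 and 3.28 on marker-negative arrays, a difference of -4.53 (SE 0.55). Here marker-positive replicate 3 was as low as its group, unlike its H4 and H2A values. Hist1h1a (H1f1) averaged -0.83 ± 0.17 (SD, n = 3) in marker-positive and 1.95 ± 0.99 (SD, n = 6) in marker-negative cells. Hist1h1b (H1f5) differed by -2.58 and also had no overlap between groups.

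Hist1h1c (H1f2), another somatic H1, did not pass. It stood at 1.81, 1.39 and -0.16 on marker-positive arrays, against 1.11, 2.18 and 2.51 on marker-negative arrays. Only replicate 3 among the marker-positive arrays lay below the marker-negative range, and the difference was -0.88. For Hist1h1d (H1f3) the probes disagreed. One was lower by limma, with levels of -0.47, -0.66 and 2.51 on marker-positive arrays, against 2.70, 3.75 and 5.11 on marker-negative arrays, and a difference of -3.42. The other was not well above background in marker-positive cells (0 of 3 arrays) and reached that level on 3 of the 6 marker-negative arrays, and its difference was -0.63.

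Core histone H2B was lower for 5 of 8 tested probes, with a median difference of -2.45. The count was 0 without marker-positive replicate 1 or 2, without marker-negative replicate 2, 5 or 6 and with slide as a fixed block, and 2 without marker-negative replicate 1, while the median stayed between -2.82 and -2.16 over these fits and those without the remaining arrays. Hist1h2bm (H2bc14) stood at -1.36, -1.60 and -0.50 on marker-positive arrays, against 0.27, 1.31 and 2.71 on marker-negative arrays, without overlap. The Hist1h2bk (H2bc12) probes differed by -2.61 and -2.55, and the Hist3h2bb (H2bu1-ps) probe by -2.48. The array lists several transcripts for each of these 4 probes, whose levels ran closely side by side, so they may read the same RNA. Hist1h2ba (H2bc1), which encodes a testis H2B, is listed by a single RefSeq transcript and differed by -2.42. Its levels, at -1.29, -1.59 and -0.21 on marker-positive arrays and 0.32 to 2.79 on marker-negative arrays, also ran closely beside those of the other 4, and whether it reads a separate RNA was not tested.

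Of the H2B probes that did not pass, Hist1h2bc (H2bc4) averaged -0.73 ± 0.16 (SD, n = 3) in marker-positive and -0.02 ± 0.48 (SD, n = 6) in marker-negative cells, with no overlap of groups. Hist2h2be (H2bc21) stood at 0.66, 0.63 and -1.05 on marker-positive arrays, against -0.24, 0.85 and 1.67 on marker-negative arrays. Marker-positive replicates 1 and 2 lay within the marker-negative range and replicate 3 below it. Hist3h2ba (H2bu2) had the single positive difference of its class, 0.74 (SE 0.93), and its levels spread widely, at 2.37, 1.10 and 3.90 on marker-positive arrays, against -0.41, 1.78 and 4.24 on marker-negative arrays.

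H2A, the partner of H2B, was lower for 4 of 13 tested probes, and all 13 differences were negative, with a median of -1.37. The count was 0 without replicate 1 or 2 of marker-positive cells or replicate 2, 5 or 6 of marker-negative cells, 1 without marker-negative replicate 3, and 2 without marker-negative replicate 1 or with slide as a fixed block. Without marker-positive replicate 3 it was 8. The median was -0.82 without marker-positive replicate 1, -0.78 without replicate 2 and -2.25 without replicate 3. Hist2h2aa1 (H2ac18) was high in both groups relative to the reference, at 2.53, 2.29 and 3.61 on marker-positive arrays, against 4.23, 5.19 and 6.44 on marker-negative arrays. Its difference was -2.41 and the groups did not overlap. Hist1h2ab (H2ac4) differed by -2.67, and Hist2h2ac (H2ac20) by -1.86. The array lists several transcripts for the Hist2h2aa1 and Hist2h2ac probes. The Hist2h2ac probe is also listed on the strand opposite its gene, so these gene-level values are uncertain. Hist1h2aa (H2ac1), which encodes a testis H2A, differed by -1.70 although its groups overlapped. Its levels on marker-positive arrays, at -1.34, -1.26 and 0.33, ran closely beside the -1.40, -1.28 and 0.44 of a Hist1h2af probe. That Hist1h2af probe has several listed transcripts and did not pass. Whether the Hist1h2aa probe reads a separate RNA was not tested.

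The remaining H2A probes ranged from -1.66 to -0.25 and did not pass. Several of them were high on marker-positive replicate 3. Hist1h2ai (H2ac13) stood at -1.06, -1.14 and 2.28 on marker-positive arrays, against 0.31, 1.29 and 2.57 on marker-negative arrays. Hist1h2ak (H2ac15) likewise stood at -1.30, -1.40 and 2.06, against -0.12, 1.01 and 2.26 on marker-negative arrays. The 3 probes of Hist3h2a (H2aw) differed by -1.65, -1.08 and -0.41, more than 1 log2 unit apart. The Hist3h2a probe at -1.08 and the Hist1h2ai probe are listed on the strand opposite their gene. The array also lists several transcripts for the Hist1h2ai probe. Hist1h2ac (H2ac6), at -0.40, was not well above background in marker-positive cells (0 of 3 arrays).

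**Figure D3:**
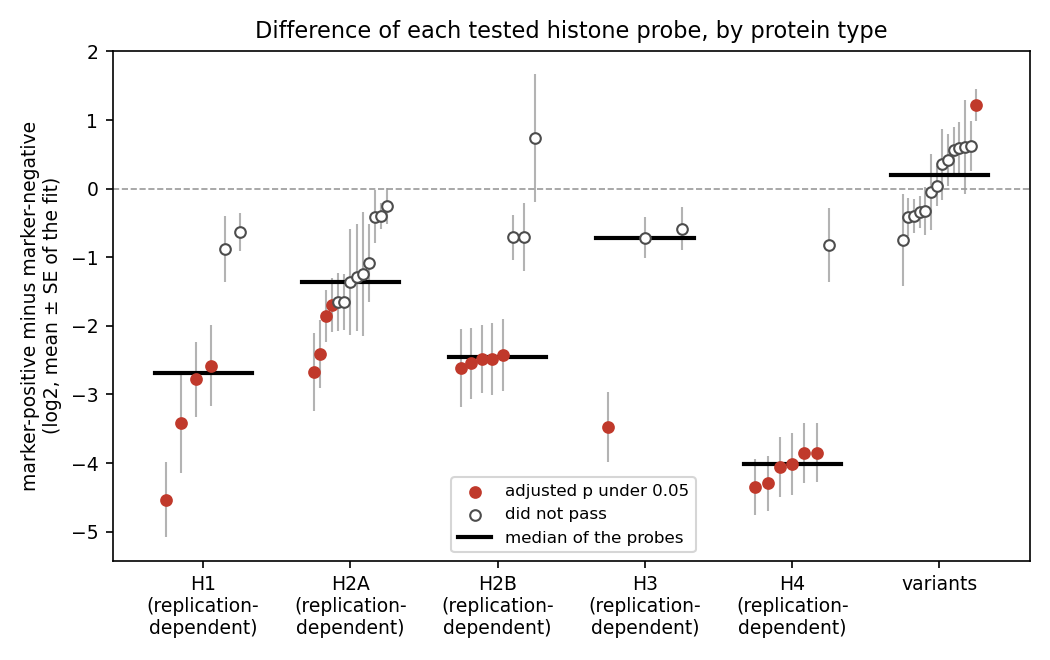
Difference of marker-positive minus marker-negative cells on the log2 scale (vertical axis, fitted difference ± SE) for each tested probe, by histone type (horizontal axis), with filled points for probes with an adjusted p under 0.05 and bars at the median. The median runs from -4.01 for H4 to -0.71 for H3 among replication-dependent types and is 0.20 for the variants.

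The gene clusters were compared by the same values. In the Hist1 cluster on chromosome 13, 15 of 26 tested probes were lower, with a median difference of -2.45. Among Hist2 probes on chromosome 3, 3 of 5 were lower (median -1.86). Among Hist3 probes on chromosome 11, 1 of 5 was lower (median -1.08), and the single tested Hist4 probe, on chromosome 6, differed by -3.86. Within Hist1 the H4 probes had a median of -4.06 and the H2A probes one of -1.33. The Hist2 H2A probes had a median of -2.14, while the called H4 probes, of 3 clusters, lay between -4.34 and -3.85. Since H4 probes may read shared RNA, these values may not be separate readings of each cluster. No test compared the clusters, since they hold different types and few probes.

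The variant histones gave 1 called probe in 14. H3f3a, which encodes H3.3, deposited independently of replication, was higher by 1 of its 3 probes, where 1.48% of all tested probes were higher. That probe (A_51_P456237, chr1:180782295-180782354 of build mm7) stood at 0.93, 0.86 and 1.26 on marker-positive arrays, against -0.68, -0.20 and 0.29 on marker-negative arrays, without overlap, as at 4.81% of all tested probes with marker-positive higher. The difference was 1.22 (SE 0.24, limma adjusted p = 0.0254), or 2.32-fold. The other H3f3a probes differed by 0.63 and 0.59 and did not pass. The call was lost with median centring, with Cy5 alone, with slide as a fixed block (difference 1.10, adjusted p = 0.212), and on leaving out replicate 1 or replicate 2 of either group.

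H3f3b, the second H3.3 gene, had probes at 0.61 and -0.34. For the first the levels were 1.77, 1.41 and -1.47 on marker-positive arrays, against -1.19, 0.17 and 0.69 on marker-negative arrays, so marker-positive replicate 3 fell below every other array. H2afz (H2az1), an H2A variant found at promoters, stood at -0.83, -1.20 and -0.53 on marker-positive arrays, against -2.12, -1.42 and -0.50 on marker-negative arrays, a difference of 0.56 with overlap. Its other probe, listed on chromosome 6 while the gene lies on chromosome 3, differed by 0.04.

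H2afv (H2az2), the close relative of H2afz, differed by -0.40. H2afx (H2ax), which is phosphorylated at DNA breaks, stood at -0.53, -0.38 and 0.67 on marker-positive arrays, against 0.15, 0.30 and 0.75 on marker-negative arrays, a difference of -0.42. The probes of H2afy (Macroh2a1), which encodes macroH2A1, differed by 0.42, 0.35 and -0.75, more than 1 log2 unit apart. H1f0, the linker histone that accumulates in non-dividing cells, differed by -0.05 and -0.32, and its groups overlapped for both probes. No variant probe was lower, also at an unadjusted p under 0.05, while 1 (H2afx, -0.73) was lower with array weights.

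Other variant genes outside the named 7 were read as well, of which 6 were tested. H2afj, an H2A variant, stood at -0.61, -0.69 and 0.70 on marker-positive arrays, against 0.87, 1.52 and 2.25 on marker-negative arrays, and was lower by limma (difference -1.70, SE 0.36, adjusted p = 0.0357). H1fx, a linker variant, differed by -1.59 and the oocyte linker gene H1foo by 0.76, and neither passed. So the variants outside the named 7 did not all lie near 0.

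The deposited reference channel was examined for the same probes. Cy3 carried the same RNA on every array. The median Cy3 difference was 0.05 for replication-dependent and -0.01 for variant probes. Replication-dependent values ranged from -0.34 (Hist1h3a) to 0.96 (Hist1h4f), and a raised Cy3 makes the ratio difference more negative. For Hist1h4f the difference from Cy5 alone was -3.65. Hist2h2ac (Cy3 difference 0.77) and Hist1h2aa (Cy3 difference 0.62) differed by -1.03 and -1.06 from Cy5 alone, and neither passed there. One member probe, Hist1h4d A_51_P136097, was called in Cy3 (0.78, limma adjusted p = 0.0425), where 0.0741% of all tested probes were, and its Cy5 difference alone was -3.83. From Cy5 alone 15 replication-dependent probes were lower (1.8% of all tested probes), with a median difference of -1.68. The fold of the authors' deposited table runs stem over non-stem cells. At an adjusted p under 0.05 that table listed 23 of the 44 replication-dependent probes as lower and 0 as higher. Of its 43379 rows, more than the array's 41174 probes, 3.12% were lower. Among the 15 variant probes the authors' deposited table listed 0 as lower and 1 as higher.

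Genes that serve histone supply were not called. Of 22 tested genes of histone mRNA 3′ end processing and histone gene transcription, 0 passed by limma and 1 was higher at an unadjusted p under 0.05, and the median difference was 0.17. Slbp, which binds the stem-loop, stood at 0.07, -0.32 and 0.09 on marker-positive arrays, against -2.24, -0.59 and 0.48 on marker-negative arrays, with overlap and a difference of 0.66. Eri1, a nuclease of the stem-loop end, differed by 1.15, Zcchc11, a uridylating enzyme, by 0.72, Yy1, a transcription factor, by 0.83 and Ars2, a partner of the cap-binding complex, by -0.89.

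Of 20 tested histone chaperones 0 passed, with 1 higher and 1 lower at an unadjusted p under 0.05 and a median of 0.07. Chaf1b, a subunit of the CAF-1 complex that deposits H3 and H4 at replication forks, stood at -1.84, -2.78 and -2.37 on marker-positive arrays, against -3.87, -3.59 and -3.02 on marker-negative arrays. Its groups did not overlap, and the difference of 1.16 (limma adjusted p = 0.0592) did not pass. Atrx, which places H3.3 with Daxx, differed by -0.74, the H3 and H4 chaperone Asf1a by -1.09 and Nap1l1, a chaperone of H2A and H2B, by 1.16.

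Of 28 tested genes of S phase and proliferation 0 passed by limma, also 0 at an unadjusted p under 0.05. Their median difference was 0.04, with 13 negative, in a range from -1.02 (Top2a, a topoisomerase) to 0.91 (E2f1, a transcription factor of S phase entry). Rrm1, a subunit of ribonucleotide reductase, differed by 0.52 and Mcm3, of the replicative helicase, by 0.77. The mean of these genes was -2.48 to -1.56 on marker-positive and -2.69 to -1.54 on marker-negative arrays. In simulated data of this size, the fit recovered 46% of changes of log2 -2 and 6% of changes of log2 -1, so a smaller change of these lists could be missed. The simulation changed 100 probes of each size and gave 54 calls, whereas the data gave 563 lower and 420 higher. Its adjusted threshold was therefore stricter, and these shares may not hold for the data.

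**Figure D4:**
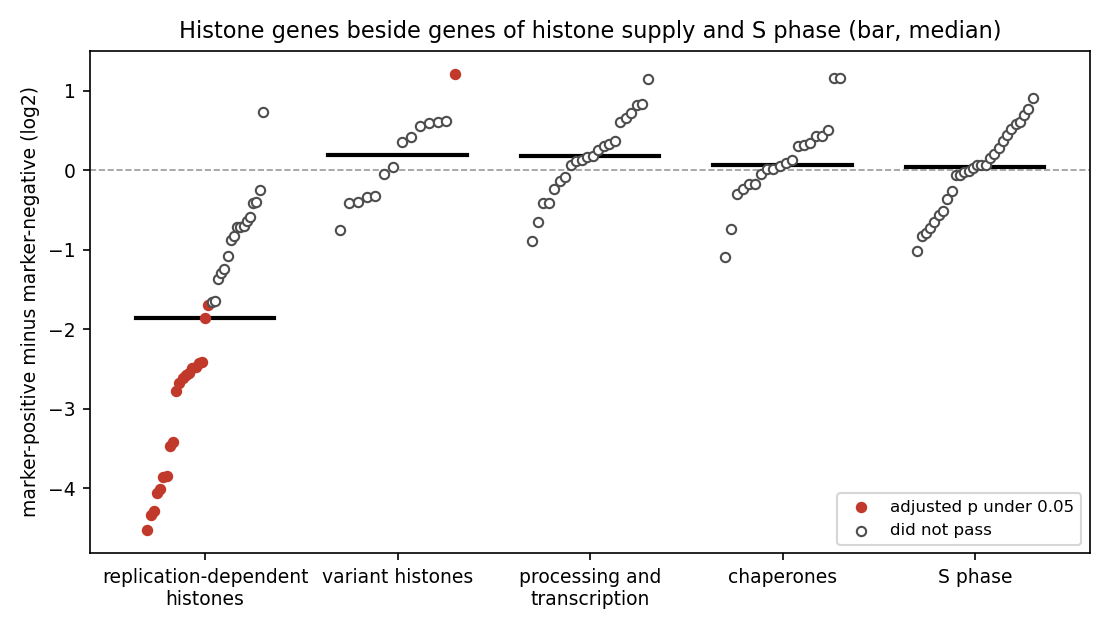
Difference of marker-positive minus marker-negative cells on the log2 scale (vertical axis) for tested replication-dependent probes, variant probes and genes of 3 supply and S phase lists (horizontal axis), with filled points for an adjusted p under 0.05 and bars at the median. The medians are -1.86 for replication-dependent probes, 0.20 for variants, 0.17 for processing and transcription, 0.07 for chaperones and 0.04 for S phase.

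Markers of several cell types moved with the groups, although both sorts were gated Lin-, a stain meant to remove lineage-marked blood cells. Their part in the histone differences was not tested. Of 10 T and cytotoxic lymphocyte markers 6 were lower in marker-positive cells, and their mean level was -0.02 to 1.29 on marker-positive and 2.38 to 5.09 on marker-negative arrays. Of 3 tested erythroid markers 2 (Alas2 and Hba-a1) were lower, with means of 1.45 to 1.79 and 3.66 to 5.63 in the same order. Of 9 luminal prostate markers 4 were lower, with means of 1.42 to 3.14 on marker-positive and 3.74 to 4.92 on marker-negative arrays. Among marker-negative arrays replicate 3 had the lowest detection (47.5%) and the highest median of H1, H2B, H3 and H4 probes. It also had the highest erythroid (5.63), mast cell (3.69) and fibroblast (-0.59) means, while its T and cytotoxic lymphocyte mean (3.47) was the second lowest. Macrophage markers were higher for 4 of 9 (means 3.86 to 4.79 on marker-positive and 0.56 to 2.71 on marker-negative arrays), mast cell markers for 4 of 6 (4.12 to 5.81 and 0.28 to 3.69) and endothelial markers for 2 of 5 (1.46 to 4.44 and -0.25 to 0.88). Basal epithelial markers were higher for 1 of 8, and of 7 fibroblast and 4 B cell markers 0 passed, with 2 fibroblast markers higher and 1 B cell marker lower at an unadjusted p under 0.05, and the mean levels of these 3 lists overlapped between groups.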

How the data were processed

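Per the labels' protocols, RNA was isolated with PicoPure, amplified with MessageAmp II and labelled with Quick Amp. The scanner files hold spot intensity values and quality flags of array design 014868, written by Agilent Feature Extraction 10.7.3.1 per the file headers (10.7 per the submitters' processing notes). The authors' deposited table gives log2 differences, p-values and limma score columns, with a normalization not given in the sources used here. With limma 3.58.1 (R 4.3.3) the mean intensities were background-corrected (normexp, offset 50) and loess-normalized within arrays. Outlier spots were dropped and the spots of a probe averaged. Probes with Cy5 signal well above background on 3 or more arrays were tested by limma's moderated test (trend, robust, two-sided, no covariate) with Benjamini-Hochberg adjustment over all 28332 and a threshold of 0.05. The number of arrays limits the precision. Members and lists were chosen with earlier results of these data known. The text names every called member, every tested variant, the largest differences, disagreeing probes and, per supply list, called genes and the 4 smallest p-values, and Slbp was added after its values were seen. List genes were read by their brightest tested probe. Probe positions are those of build mm7:NCBI35:Aug2005 per the file headers. The fit was tested on simulated data, and plots were drawn with matplotlib 3.10.9.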

Additional observations from a re-analysis of the deposited data

Results flagged for a closer look

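The marker-negative arrays were examined by Dixon's test at the 95% level for 51 single probes and for 11 medians over classes, types and clusters. In 3 of these 62 sets 1 array lay far from the others, and chance alone gives about 1 in 20. All 3 were variant probes. H2afx stood at 0.75 on marker-negative replicate 6, where the next array stood at 0.33. One H2afy probe (A_52_P402989) stood at 1.79 on marker-negative replicate 3, where the next array stood at -0.55. The H2afz probe listed on chromosome 6 (A_51_P107901) stood at 1.35 on marker-negative replicate 5, where the next array stood at 0.47.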

How the results depend on the processing

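No called replication-dependent probe changed direction under any of the 21 alternatives, and 6 of the 20, all H4, stayed called under every one. Hist1h1e (-3.98, adjusted p = 0.0881) and Hist1h3a (-3.46, adjusted p = 0.0638) lost their call only where slide was a fixed block, which left 8 lower probes, 7 of them among the 20, and 0 higher variant probes. Variant probes called higher were also 0 with median centring and with Cy5 alone, and called lower were 1 with array weights, where 3450 probes were lower and 2921 higher on the whole array. Median centring gave 207 lower and 200 higher on the whole array, and slide as a fixed block 47 lower and 157 higher. With each array left out, lower replication-dependent probes numbered 8 (without replicate 1 or 2 of marker-positive cells, or replicate 5 of marker-negative cells) to 24 (without marker-positive replicate 3). The count was 9 without marker-negative replicate 2 or 6 and 13 without replicate 1. Their median ranged from -2.55 to -1.53, variant probes called higher from 0 to 1 and the variant median from -0.06 to 0.30. With detection in both channels on all arrays the replication-dependent median was -2.42. The causes were not tested. One probe per gene (18 lower), and leaving out probes listed on the strand opposite their gene (19 lower), were chosen after seeing the data, as were the values within slides. No paired analysis by replicate number was possible because the labels carry none, and arrays were matched only by slide, as the block and within slides. Arrays of a group may share animals, dim probes give compressed ratios, and there was no dye swap.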
